A study of Rattus norvegicus with 16 samples.

Results

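Messenger RNA levels in the hippocampus of old male rats were compared with those in young ones, all of the LOU/C/Jall strain. The comparison uses the 4 arrays labelled old hippocampus, from rats aged 26 months, and the 4 labelled young hippocampus, for which the labels give 5 months and the series design text gives 3. They are 8 of the 16 one-colour Agilent arrays of the study, whose other 8 hold frontal cortex of old and young rats in the same numbers. No treatment, transgene or second strain is named, so every group is this 1 strain, killed under isoflurane and with the region dissected from both hemispheres. Members were taken by their labelled source, and all genes on the array are described rather than the leading ones alone.

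A letter code in the title tells the arrays apart, AG, AF, AI and AH for the old and Y, AB, AA and Z for the young hippocampus, and values below follow this order. Each code occurs once in each region and may mark the same rat in both, though no label says so. SEs and p-values rest on the spread between arrays of a group, pooled over all 16 arrays with frontal cortex included. A level is the deposited log2 signal minus the 75th percentile of its array, which puts a gene as bright as that percentile at 0. A difference is old minus young on the log2 scale, given with its SE. A gene was called when limma's adjusted p (Benjamini-Hochberg over all genes kept) was under 0.05. Levels of different genes are read by different probes and are not set against each other.

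The hippocampus holds the granule neurons of the dentate gyrus and the pyramidal neurons of the CA fields, which form the circuit that lays down memories of places and events. Microglia are its resident macrophages; they clear debris through receptors such as Trem2 and use the proteins of the complement cascade to tag material for removal. Astrocytes around them answer disturbance by making more of the filament protein Gfap, and metallothioneins bind zinc and copper. In whole tissue, fewer cells of a type and less RNA per cell cannot be told apart.

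Of 16974 genes, 10056 were above the intensity minimum in at least 1 of the 4 groups and were kept. The median residual SD of a gene was 0.165 log2, and pairs of arrays correlated over genes with a median r of 0.983 among old hippocampus and 0.989 among young hippocampus arrays. Pairs of an old with a young array had a median r of 0.986, so old arrays were no closer to each other than to young ones. Markers of hippocampal fields and of cortical layers were set beside frontal cortex, as a description only. Of the genes known from CA2 and CA3 neurons, 7 of 12 were higher on all 8 hippocampus arrays than on all 8 frontal cortex arrays; 1 of the 7, Sostdc1, is also in the choroid plexus list used below, which leaves 6 of 11 without it. The same held for 3 of 10 dentate, 3 of 7 CA1 and 1 of 8 subiculum and entorhinal genes, and 2 of those 8 were lower on all hippocampus arrays. The share of all kept genes that lay above cortex in this way was not computed. These counts thus have no background beside them and do not test the label. Of the 11 genes of cortical layers 0 were higher on all hippocampus arrays and 3 were lower.

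Neighbouring tissue and blood differed more between arrays of 1 age than between the ages. The choroid plexus, whose epithelium secretes cerebrospinal fluid into the ventricle beside the hippocampus, was followed through 24 kept genes, each set to its mean over the 8 arrays. Their mean was -1.61, -0.88, 1.91 and 0.87 log2 on the old arrays AG, AF, AI and AH, against 1.21, 1.64, -1.66 and -1.49 on the young arrays Y, AB, AA and Z. Arrays of both ages thus lie at both ends, and the old and young ranges overlap almost fully. Summed on the linear scale, the list covered 16.8 to 305 on old and 15.5 to 277 on young arrays, in units of each array's 75th percentile, with 0 of the kept genes under the minimum at both ages. Ttr, the thyroxine carrier that this epithelium secretes, spanned 3.35 to 7.86 on old and 2.86 to 7.77 on young arrays.

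Erythrocyte genes, 9 kept with the globins among them, averaged -0.38, 0.91, -0.03 and 0.20 on the old arrays, against 0.08, -0.11, -0.23 and -0.45 on the young arrays. The old array AF stands above the other 7, and the summed level covered 65.7 to 331 on old and 67.2 to 153 on young arrays, with 1 gene, Klf1, under the minimum at both ages. The list of pericyte, smooth muscle and meningeal genes was highest on the young array Y, at 0.99. Thalamic and habenular genes were high on 1 array of each age, at 0.58 on old AH and 0.59 on young Y. With the choroid plexus or the erythrocyte list mean as a covariate the fit called the same 4 genes that are described below. Under the erythrocyte covariate the genes with an unadjusted p below 0.05 numbered 381 higher and 155 lower. Among the list medians it moved were neutrophil (1.47 to 1.09), striatum (0.03 to 0.242), myelin (0.12 to 0.252) and reactive astrocyte (0.43 to 0.321). Its values for the erythrocyte and glucocorticoid lists are given below. The meningeal and thalamic lists were not used as covariates, so their part was not tested. Some levels below are set beside one of these signals by array, and apart from the covariate fits no link between them was tested.

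**Figure D1:**
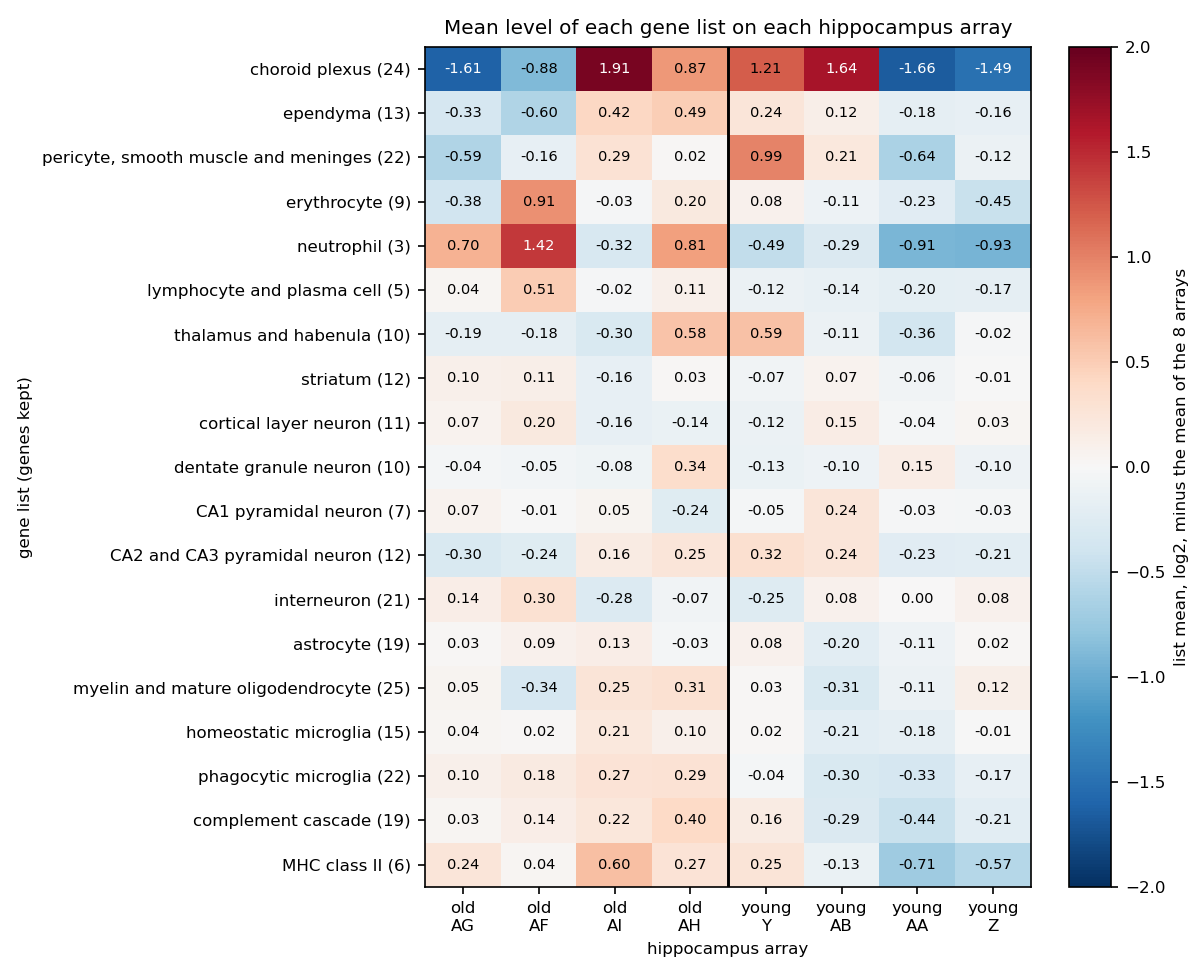
Mean level of 19 gene lists (rows, number of genes kept in brackets; Sostdc1 is in both the choroid plexus and the CA2 and CA3 rows) on the 4 old (left) and 4 young (right) hippocampus arrays, as log2 minus the mean of the 8 arrays. Choroid plexus genes run from -1.61 to 1.91 on old and from -1.66 to 1.64 on young arrays, while phagocytic microglia genes run from 0.10 to 0.29 on old and from -0.33 to -0.04 on young arrays.

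Few genes passed the threshold, and all of those that did were higher in old hippocampus. Limma called 4 genes higher, 0.0398% of the 10056 tested, and 0 lower. At that share a count of 0 called is usual for a list of genes and says little about it. Without adjustment, 681 genes (6.77%) had a p under 0.05, of which 457 (4.54%) were higher and 224 (2.23%) lower. If no gene differed, 502.8 would be expected over both directions. Averaging a gene's probes instead of reading the brightest gave 331 higher and 380 lower, so the excess of higher genes depends on which probes are read. The 4 old arrays lay above the 4 young arrays in 270 genes (2.68%) and below them in 189 (1.88%).

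The lean toward higher genes grew with the size of the difference. A difference of at least 0.25 log2 was measured in 615 genes upward and 327 downward, one of at least 0.5 in 92 and 12, and one of at least 1 in 14 and 1. Of the 14, 8 had arrays that did not overlap. Among the others, Vom1r42 was set by old AH alone, and without that array the difference of Prg2 was 0.34. The single downward gene, Cenpc, was also set by 1 array. These counts by size were read from the brightest probes and were not repeated with the mean of all probes. The median difference over all kept genes was 0.01 log2, and 52.9% of them had a positive difference. The share of genes with all old arrays above the young was 2.54% among the dimmest genes, 2.74% in the middle and 2.77% among the brightest (3352 genes each), so it did not follow brightness.

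C3, the protein on which all routes of complement activation meet, rose in old hippocampus. Its 250 bases upstream of the annotated start are shown because C/EBP factors are known to act on the human C3 promoter and C3 carries the clearest difference here. The sequence is RefSeq's for GRCr8, chr9:2201340-2201589 on the minus strand, and capitals mark a match to the C/EBP letters TTGCNNAA, searched on both strands.
C3: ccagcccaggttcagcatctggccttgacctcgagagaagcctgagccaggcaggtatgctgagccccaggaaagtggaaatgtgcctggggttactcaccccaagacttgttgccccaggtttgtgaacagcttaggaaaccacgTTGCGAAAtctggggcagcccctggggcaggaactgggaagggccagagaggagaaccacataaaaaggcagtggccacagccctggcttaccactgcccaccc
The window holds 1 match, as do 9.22% of the 33469 rat promoter windows of the same length with at least 1. This is a description of the letters and shows no binding.

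C3 stood at 1.07, 0.72, 1.23 and 1.47 on the old arrays AG, AF, AI and AH, against -0.30, -0.58, -0.37 and -0.28 on the young arrays Y, AB, AA and Z. The lowest old array, AF, lay well above every young array. The difference was 1.50 ± 0.14 log2, a 2.83-fold higher level in old hippocampus (adjusted p = 0.000155), and its second probe gave 1.34. Old AG, the old array with the least choroid plexus signal, had a C3 level of 1.07, and the young arrays Y and AB, which had much of that signal, had -0.30 and -0.58. Beyond the covariate fit, a link between that signal and C3 was not tested. C3 was called without each of the 8 arrays in turn, with differences of 1.39 to 1.64. With the 8 hippocampus arrays fitted alone limma's adjusted p for C3 was 0.017.

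The whole cascade, C3 included, was measured through 19 kept of 27 genes on the array. A positive difference was measured in 18 of them and the median was 0.33 log2, and without C3 in 17 of 18 with a median of 0.328, against 52.9% positive and a median of 0.01 over all kept genes. The list was written with earlier results of these data known, so its count is no independent evidence, with or without C3. The median was 0.19 without young AA and 0.47 without young Y. C1qa, a chain of the recognition molecule C1q, stood at 2.58, 2.59, 2.37 and 2.80 on the old arrays, against 2.32, 1.80, 1.60 and 2.18 on the young arrays. The groups did not overlap, though young Y came close to old AI, and the difference was 0.61 ± 0.14 (adjusted p = 0.212). Itgam, the alpha chain of complement receptor 3, had a difference of 0.63 ± 0.12 (adjusted p = 0.119) with old levels of -0.94 to -0.49 and young levels of -1.48 to -1.24.

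C4a, a complement component cleaved just upstream of C3, read 1.66, 2.02, 1.82 and 2.20 on the old arrays, against 1.77, 0.75, 0.66 and 0.72 on the young arrays. Young Y stands among the old arrays and the other 3 young arrays lie below all of them. With young Y the difference was 0.95 ± 0.23 (adjusted p = 0.310), and without it 1.22 (adjusted p = 0.0144). That was the only 1 of the 8 fits leaving out 1 array in which C4a passed the threshold. Young Y also carried the highest meningeal list mean, 0.99, and a choroid plexus mean of 1.21. In the other direction Masp1, a protease of the lectin pathway, stood at -1.79, -2.13, -1.91 and -2.18 on the old arrays, against -1.59, -1.67, -1.30 and -1.56 on the young arrays. Its brightest probe gave -0.47 ± 0.14 (adjusted p = 0.472) and its other probe 0.35, so its direction depends on the probe.

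**Figure D2:**
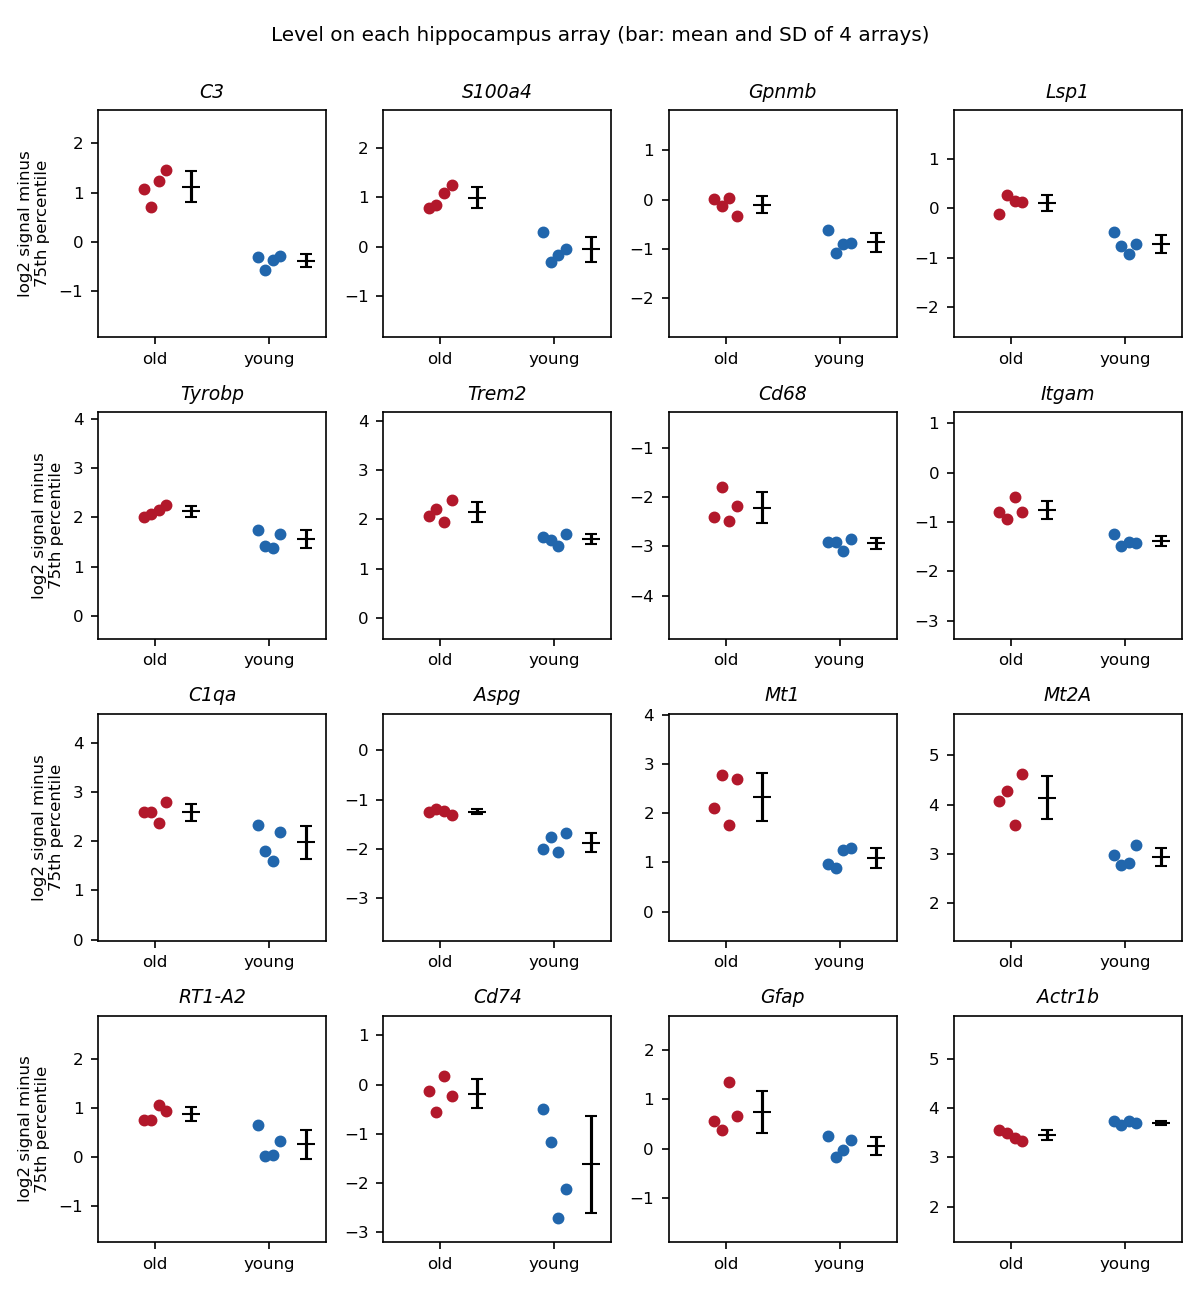
Level of 16 genes on each of the 4 old (red, left) and 4 young (blue, right) hippocampus arrays, as log2 signal minus the 75th percentile of the array, with the mean and SD as a bar. C3 lies between 0.72 and 1.47 on old and between -0.58 and -0.28 on young arrays, while Cd74 overlaps between the ages and spreads from -2.71 to -0.49 on young arrays.

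The other 3 genes called are known from myeloid cells. S100a4, a calcium-binding protein of motile and myeloid cells, rose in old hippocampus. It stood at 0.78, 0.85, 1.08 and 1.25 on the old arrays, against 0.29, -0.32, -0.16 and -0.04 on the young arrays, a difference of 1.05 ± 0.15 (adjusted p = 0.0123). Gpnmb, a transmembrane glycoprotein of lysosome-rich phagocytes, rose as well. It read 0.02, -0.14, 0.03 and -0.33 on the old arrays, against -0.62, -1.08, -0.90 and -0.87 on the young arrays, a difference of 0.76 ± 0.11 (adjusted p = 0.0123). Lsp1, an actin-binding protein of leukocytes, also rose. It read -0.12, 0.28, 0.14 and 0.13 on the old arrays, against -0.48, -0.77, -0.93 and -0.73 on the young arrays, a difference of 0.84 ± 0.12 (adjusted p = 0.0123).

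None of these 3 had overlapping groups, but their calls depend on single arrays, and that of Gpnmb also on the probe rule. Without young AB, AA or Z in turn all 3 missed the threshold (adjusted p of 0.0625 to 0.0769), and without old AH S100a4 and Lsp1 did (0.0537 and 0.0629). Gpnmb missed it without old AG (0.0668) and Lsp1 without old AF (0.0760). With the 8 hippocampus arrays fitted alone all 3 missed it as well (0.0932 to 0.150). Gpnmb also missed it with the mean of all its probes (0.0924). The differences themselves stayed between 0.96 and 1.16 for S100a4, 0.69 and 0.85 for Gpnmb and 0.77 and 0.92 for Lsp1 when 1 array was left out.

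Trem2, the lipid-sensing receptor of microglia, and its signalling adaptor Tyrobp were among the genes with the next smallest p. Aspg and Mt2A, described below, shared their adjusted p of 0.0702. Trem2 read 2.06, 2.21, 1.95 and 2.40 on the old arrays, against 1.65, 1.59, 1.46 and 1.71 on the young arrays, a difference of 0.55 ± 0.10 (adjusted p = 0.0702). Tyrobp read 2.00, 2.07, 2.15 and 2.25 on the old arrays, against 1.75, 1.42, 1.37 and 1.66 on the young arrays, a difference of 0.57 ± 0.10 (adjusted p = 0.0702). Both sets of arrays were apart, and neither gene passed the threshold. The phagocyte lysosome protein Cd68 ran from -2.48 to -1.80 on old and from -3.09 to -2.85 on young arrays (0.73 ± 0.14, adjusted p = 0.119). The lysosomal protease Ctss ran from 3.20 to 3.66 on old and from 2.71 to 2.99 on young arrays (0.54 ± 0.11, adjusted p = 0.172).

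Over the whole phagocytic list, 22 of 28 genes on the array were kept, 20 had a positive difference and the median was 0.35. Of them 3 were called, and 11 had old arrays all above young ones, which 2.68% of all kept genes had. The list was written with values of these genes known, so its count is no independent evidence. Lgals3, galectin-3 of activated phagocytes, had a wide difference of 1.21 ± 0.29 with levels of -0.59 to 0.39 on old and -1.86 to -0.84 on young arrays (adjusted p = 0.310). Spp1, the secreted phosphoprotein osteopontin, lay near the minimum, at -3.07 to -2.95 on old and -3.94 to -3.56 on young arrays.

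Genes that microglia make at rest showed a smaller shift. Of 15 kept, the difference was positive in 13 and the median 0.16 (0.094 without old AI). The count called was 0, where 0.0398% of all kept genes were called. P2ry12, the ADP receptor of surveying microglia, ran from 0.17 to 0.41 on old and from -0.18 to 0.18 on young arrays, and the groups overlapped. Its difference was 0.30 (adjusted p = 0.643). Border macrophage genes had a median of 0.21 over the 4 kept of 9, and lymphocyte and plasma cell genes 0.33 over 5 kept of 19, both with 0 called. In each case most of the defining markers were too dim to keep.

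Antigen presentation followed a similar order with wider spread. Cd74, the invariant chain that guards the peptide groove of class II molecules, stood at -0.13, -0.55, 0.17 and -0.24 on the old arrays, against -0.49, -1.16, -2.71 and -2.12 on the young arrays. The old arrays were close together and the young ones were not: the SD was 0.29 in old and 0.99 in young hippocampus. Young Y lay above old AF, so the groups overlapped, and the difference of 1.43 ± 0.41 was not called (adjusted p = 0.472). All 6 kept genes of the class II list were positive with a median of 0.51 (0.35 without old AI). The median depends on which members are kept: it was 0.065 over 10 genes without the intensity minimum and 0.083 with a stricter one. The list mean was 0.24, 0.04, 0.60 and 0.27 on the old arrays, against 0.25, -0.13, -0.71 and -0.57 on the young arrays, with Y again among the old.

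Class I molecules and the immunoproteasome, which cuts their peptides, had 19 of 20 kept genes positive and a median of 0.23, or 0.15 with the mean of all probes. RT1-A2, a rat class I gene, read 0.76, 0.76, 1.06 and 0.94 on the old arrays, against 0.66, 0.02, 0.04 and 0.33 on the young arrays. The arrays did not overlap, and the difference was 0.62 ± 0.13 (adjusted p = 0.172). Without young Y it was 0.75 and passed the threshold (adjusted p = 0.0144), the only 1 of the 8 fits leaving out 1 array in which it did. RT1 genes are near-identical copies that probes may not tell apart, so a single symbol is uncertain. Interferon response genes had 19 of 23 kept positive with a median of 0.20 (0.13 without old AI). Of them 0 were called, where 0.0398% of all kept genes were. Ifi27l2b, an interferon-induced protein, had a difference of 0.41 (adjusted p = 0.445), and 0.55 without old AI (adjusted p = 0.0166). It passed in none of the other fits leaving out 1 array.

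Astrocyte genes did not shift as a group, while single members did read higher. Gfap ran from 0.38 to 1.36 on old and from -0.16 to 0.25 on young arrays, with old AI the highest. The arrays were apart, and the difference of 0.69 ± 0.18 was not called (adjusted p = 0.458). All its 11 kept probes were positive, from 0.43 to 0.74. Of the 19 kept astrocyte genes 13 were positive with a median of 0.05, and without old AI and young AB together the median was -0.008.

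The genes of reactive astrocytes had 10 of 12 kept positive and a median of 0.43 (0.32 without young AA). Over 20 genes without the intensity minimum the median was 0.231. Aspg, an asparaginase reported in reactive astrocytes, was the tightest of them. It stood at -1.25, -1.19, -1.24 and -1.32 on the old arrays, against -2.01, -1.76, -2.06 and -1.67 on the young arrays, a difference of 0.62 ± 0.11 (adjusted p = 0.0702). The old arrays lay close together and wholly above the young. Serping1, the inhibitor of C1 proteases, was spread widely, from 0.25 to 1.25 on old and from -0.70 to 0.56 on young arrays, with young Y inside the old range (0.95 ± 0.28, adjusted p = 0.472).

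The metallothioneins Mt1 and Mt2A had differences above 1 log2 with separate groups, without passing the threshold. Their upstream windows are shown because metal response elements, to which the zinc-sensing factor Mtf1 binds, are known to drive both. The 250 bases before each start are RefSeq's for GRCr8, on the minus strand of chr19:10832976-10833225 for Mt1 and chr19:10838709-10838958 for Mt2A. Capitals mark matches on either strand to TGCACNC or TGCGCNC, the core of that element.
Mt1: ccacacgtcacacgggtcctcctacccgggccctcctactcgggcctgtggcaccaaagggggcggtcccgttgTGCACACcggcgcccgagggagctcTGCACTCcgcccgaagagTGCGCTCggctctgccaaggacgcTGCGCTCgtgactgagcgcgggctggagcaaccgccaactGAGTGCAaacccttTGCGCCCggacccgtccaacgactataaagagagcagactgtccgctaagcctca
Mt2A: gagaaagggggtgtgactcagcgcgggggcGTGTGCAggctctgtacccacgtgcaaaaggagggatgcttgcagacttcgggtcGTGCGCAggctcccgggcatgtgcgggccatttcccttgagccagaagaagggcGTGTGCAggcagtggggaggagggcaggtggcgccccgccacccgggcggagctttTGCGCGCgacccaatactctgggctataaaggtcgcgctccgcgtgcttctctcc
The Mt1 window holds 6 matches and the Mt2A window 4. At least 1 match is found in 20.6% of the 33469 windows and at least 3 in 1.17%.

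Mt1 stood at 2.10, 2.77, 1.75 and 2.69 on the old arrays, against 0.97, 0.88, 1.25 and 1.29 on the young arrays. Mt2A stood at 4.08, 4.28, 3.58 and 4.62 on the old arrays, against 2.97, 2.78, 2.81 and 3.18 on the young arrays. In both genes old AI, the array with the most choroid plexus signal, was the lowest old array, and no young array reached its level. A link with the choroid plexus signal was not tested beyond the covariate fit. The differences were 1.24 ± 0.27 for Mt1 (adjusted p = 0.180) and 1.20 ± 0.22 for Mt2A (adjusted p = 0.0702). Mt2A passed without old AI (adjusted p = 0.0274), the only 1 of the 8 fits leaving out 1 array in which it did. All 11 probes of Mt2A were positive, from 0.87 to 1.20. The 2 genes are close in sequence, so some signal may be shared between their probes.

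The wider metal list had 12 of 13 kept genes positive with a median of 0.21, but 0.015 with the mean of all probes. Fth1, the ferritin heavy chain that stores iron, ran from 7.09 to 7.23 on old and from 6.70 to 6.99 on young arrays (0.28, adjusted p = 0.472), while 1 of its 3 probes gave 0.0059. Slc40a1, the iron exporter ferroportin, was the 1 negative member at -0.29 (adjusted p = 0.670). Mt2A is also induced by glucocorticoids, and the list of such genes had 12 of 17 positive with a median of 0.06, or -0.045 with the erythrocyte covariate. That list's mean was highest on old AF, at 0.41, the array with the most erythrocyte signal.

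Few genes of neutrophils could be read, and those spread widely among the old arrays. S100a9, a subunit of the myeloid protein calprotectin, stood at -0.87, -0.08, -2.68 and -1.24 on the old arrays, against -2.76, -2.46, -2.94 and -3.09 on the young arrays. Old AI lies inside the young range and the other 3 old arrays lie above it, and the difference of 1.60 ± 0.48 was not called (adjusted p = 0.499). S100a8, its partner, had the same order, with a young mean under the intensity minimum. The third kept gene, Lcn2, a siderophore-binding protein, had a difference of 0.85. Only 3 of 11 genes were kept, S100a8 through the old groups alone, and over all 11 without the filter the median was -0.012, so the 3 values stand for no list. The mean of the 3 was 0.70, 1.42, -0.32 and 0.81 on the old arrays, against -0.49, -0.29, -0.91 and -0.93 on the young arrays. The highest value fell on the array with the most erythrocyte signal, and a link was not tested beyond the covariate fit.

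Erythrocyte genes themselves had 9 of 9 kept positive and a median of 0.44, which was 0.088 without old AF. With the erythrocyte covariate it was 0.051, but that covariate is the mean of these same genes, so a fall was fixed in advance. Hba-a1, an alpha globin, stood at 5.23, 7.71, 6.28 and 6.48 on the old arrays, against 6.57, 5.99, 5.73 and 5.35 on the young arrays, and the groups overlapped. Globin genes are near-identical copies, so the symbols are uncertain. Lrg1, a leucine-rich glycoprotein of acute inflammation, also varied within both ages, from -0.41 to 1.43 on old and from -1.80 to 0.34 on young arrays (1.35 ± 0.46, adjusted p = 0.639).

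Myelin genes were not shifted beyond their spread. Of 25 kept, 17 were positive with a median of 0.12 and 0 called, where 0.0398% of all kept genes were called. The list mean was 0.05, -0.34, 0.25 and 0.31 on the old arrays, against 0.03, -0.31, -0.11 and 0.12 on the young arrays, so 1 array of each age was low, and without old AI and young AB the median was -0.019. Hapln2, a link protein of the node of Ranvier, had the smallest p of the list, with 3.39 to 3.92 on old and 2.87 to 3.40 on young arrays (0.61, adjusted p = 0.643). Mbp, myelin basic protein, had a difference of -0.02. Oligodendrocyte precursor genes had 5 of 11 positive and a median of -0.01.

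**Figure D3:**
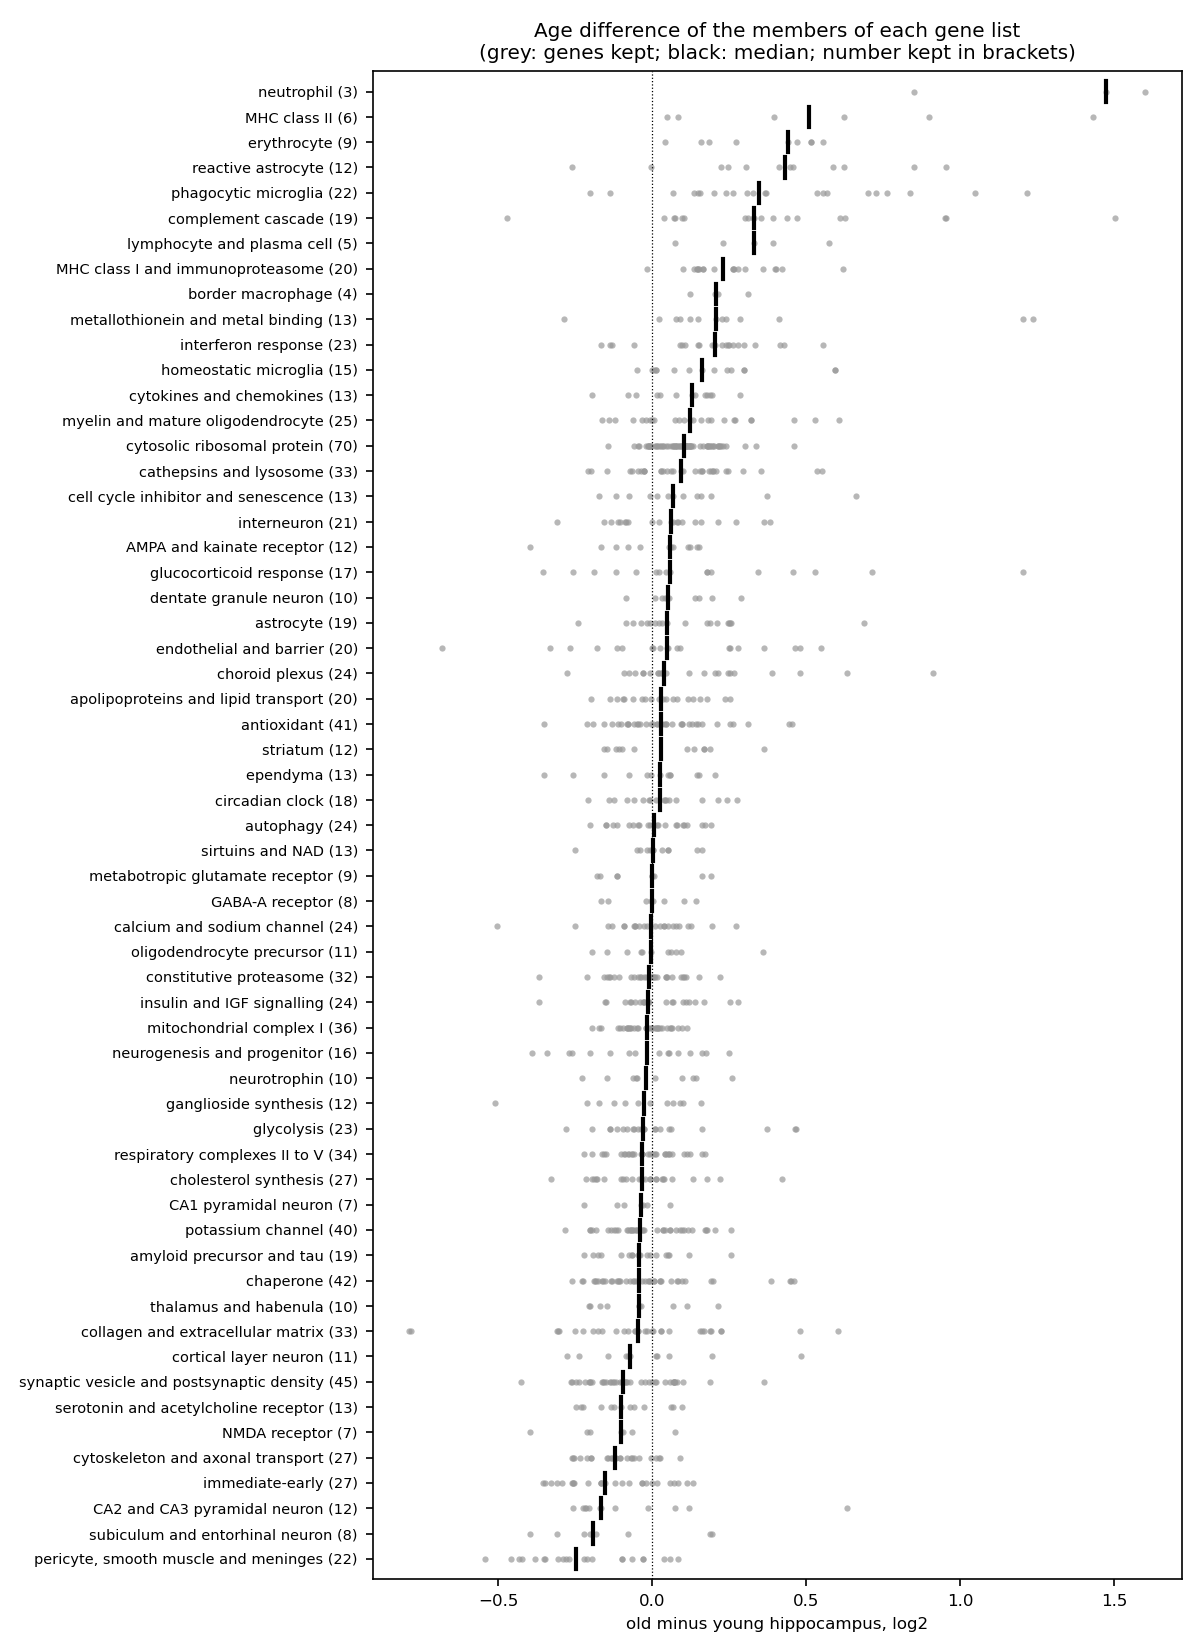
Age difference (old minus young hippocampus, log2) of every kept gene of 59 gene lists (grey points, a row per list, number kept in brackets), with the median as a black bar. Medians run from -0.25 for pericyte, smooth muscle and meningeal genes to 0.51 for the 6 kept class II genes among lists with more than 3 genes kept. Without the filter the class II median of 10 genes was 0.065. The neutrophil bar at 1.47 is the value of S100a8 alone, whose young mean is under the minimum, and without the filter the median of 11 genes was -0.012.

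No gene was called lower in old hippocampus by limma, where 224 (2.23%) had a negative difference at an unadjusted p under 0.05. With 502.8 expected over both directions if no gene differed, the 224 show no excess of lower genes. St8sia5, a sialyltransferase that makes complex gangliosides of neurons, had the smallest p. It stood at -2.59, -2.79, -2.77 and -2.89 on the old arrays, against -2.45, -2.23, -2.16 and -2.15 on the young arrays, a difference of -0.51 ± 0.11 (adjusted p = 0.188). The groups were apart, with young Y the nearest to the old arrays. Actr1b, a subunit of the dynactin complex that couples dynein to cargo, had a small difference with tight groups. It read 3.56, 3.49, 3.38 and 3.34 on the old arrays, against 3.73, 3.65, 3.73 and 3.69 on the young arrays (-0.26 ± 0.07, adjusted p = 0.472).

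Further genes with separate groups and small p were Dbndd1 (-0.36), Rnf14 (-0.35), Trnp1 (-0.49), Tmem74 (-0.35) and Spata2 (-0.24), each with an adjusted p of 0.451 to 0.512. Rnf14, a ubiquitin ligase, ran from 4.25 to 4.53 on old and from 4.68 to 4.91 on young arrays. Trnp1, a nuclear protein that shapes cortical folding in the mouse, ran from -1.89 to -1.25 on old and from -1.03 to -0.92 on young arrays, with old AH the lowest. Cacna2d3, an auxiliary subunit of calcium channels, ran from -0.50 to 0.12 on old and from 0.22 to 0.41 on young arrays (-0.50, adjusted p = 0.530).

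Other such genes by the same ranking were Sar1a (-0.30), Zfp518a (-0.28), Nrbf2 (-0.26), Asnsd1 (-0.33), Camkmt (-0.36) and Vsig10l (-0.32), with an adjusted p of 0.472 to 0.508. Sar1a, a GTPase that starts the budding of vesicles from the endoplasmic reticulum, ran from 2.20 to 2.43 on old and from 2.44 to 2.71 on young arrays. Nrbf2, a part of the lipid kinase complex of autophagy, ran from -0.95 to -0.66 on old and from -0.61 to -0.46 on young arrays. Other probes of Nrbf2 and Asnsd1 came as near to 0 as -0.0284 and -0.0022. Asnsd1 owed part of its difference to old AH, at 0.59 where the other old arrays lay between 1.02 and 1.05.

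Matrix genes had some of the widest negative differences, and these followed young Y. Col1a2, a chain of type I collagen, stood at -1.79, -0.87, 0.10 and -1.0 on the old arrays, against 1.35, 0.25, -1.85 and -0.17 on the young arrays (-0.78 ± 0.60, adjusted p = 0.817). Actg2, a smooth muscle actin, was -1.49 on young Y and between -3.91 and -3.65 on the other 7 arrays. Both groups overlapped in each gene, and Y had the highest meningeal list mean. The collagen and matrix list had 20 of 33 negative with a median of -0.05, and 0.078 without young Y.

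Neuronal lists went both ways, with 0 called in each, where 0.0398% of all kept genes were called. The list of cytoskeleton and axonal transport genes had 23 of 27 kept negative with a median of -0.12, which was -0.063 without old AI. Genes of synaptic vesicles and of the postsynaptic density were negative in 31 of 45 cases with a median of -0.10, which was -0.016 without old AI. Both list means were lowest on old AI, at -0.19 and -0.20, and that array had the most choroid plexus signal; among the other 3 old arrays they ran from -0.06 to 0.04. Slc17a7, the vesicular glutamate transporter of pyramidal neurons, ran from -0.57 to -0.28 on old and from -0.27 to -0.09 on young arrays (-0.26, adjusted p = 0.754). Dlgap2, a postsynaptic scaffold protein, ran from -1.15 to -1.03 on old and from -0.91 to -0.24 on young arrays (-0.43, adjusted p = 0.675).

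Immediate-early genes, which neurons switch on with activity, had 20 of 27 kept negative and a median of -0.15, or -0.079 without old AI. Arc, whose protein trims AMPA receptors from synapses, read 1.43, 1.09, 1.08 and 1.32 on the old arrays, against 1.70, 1.22, 1.71 and 1.69 on the young arrays. Young AB lies inside the old range and the other 3 young arrays lie above it (-0.35, adjusted p = 0.800). Dusp1, a phosphatase of MAP kinases, was the 1 member with separate groups, -3.62 to -3.35 on old and -3.34 to -3.04 on young arrays, both means being under the minimum (-0.35 ± 0.11, adjusted p = 0.487). Egr1 had a difference of -0.29 and Fos of -0.26, Fos also under the minimum at both ages.

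Interneuron genes had 12 of 21 positive and a median of 0.06, -0.088 without old AF and 0.119 without old AI. Receptor lists stayed near 0. NMDA receptor genes had 6 of 7 negative with a median of -0.10. Grin2b, a subunit that prolongs the channel's opening, ran from -2.76 to -2.33 on old and from -2.50 to -1.96 on young arrays (-0.20, adjusted p = 0.790). AMPA and kainate receptor genes had a median of 0.06, metabotropic glutamate receptors -0.0003, GABA-A receptors -0.0013, and serotonin and acetylcholine receptors -0.10. In each 0 were called, where 0.0398% of all kept genes were. Potassium channels had a median of -0.04 over 40 genes, and calcium and sodium channels -0.0049 over 24.

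Housekeeping lists showed small shifts. Cytosolic ribosomal protein genes had 59 of 70 positive and a median of 0.10, between 0.074 and 0.12 when 1 array was left out. Their list mean was 0.05, 0.10, 0.007 and 0.05 on the old arrays, against -0.03, -0.05, -0.14 and 0.0028 on the young arrays. The largest, Rpsa, had a difference of 0.46 (adjusted p = 0.604), but -0.17 on another of its 3 probes, and such genes have many near-identical copies. Complex I genes had a median of -0.02 over 36 genes, the other respiratory complexes -0.03 over 34, the constitutive proteasome -0.0094 over 32 and chaperones -0.04 over 42. Clock genes (0.02), sirtuins and NAD enzymes (0.0019), autophagy genes (0.0042), insulin and IGF signalling (-0.01), cholesterol synthesis (-0.03), amyloid and tau genes (-0.04) and antioxidant enzymes (0.03) had medians as small. Of their genes 0 were called, where 0.0398% of all kept genes were.

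Single members of those lists stood out from their medians. Srebf1, the transcription factor that drives fatty acid synthesis, stood at 0.77, 1.03, 0.93 and 0.83 on the old arrays, against 0.30, 0.56, 0.46 and 0.56 on the young arrays, with separate groups (0.42 ± 0.09, adjusted p = 0.188). Its second probe gave 0.16. Gsta1, a glutathione transferase, ran from 3.37 to 3.80 on old and from 3.04 to 3.34 on young arrays (0.45, adjusted p = 0.361). Its probes ran from 0.30 to 0.45. Pla2g7, a secreted phospholipase that cleaves platelet-activating factor, stood at 1.73, 1.57, 1.53 and 1.54 on the old arrays, against 1.21, 0.91, 1.02 and 1.21 on the young arrays (0.50 ± 0.10, adjusted p = 0.119). Itih3, a heavy chain that binds hyaluronan, ran from 3.70 to 4.03 on old and from 3.24 to 3.68 on young arrays (0.49 ± 0.11, adjusted p = 0.263).

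Subfield markers of the hippocampus had small medians. CA2 and CA3 genes had 9 of 12 negative and a median of -0.17, with list means of -0.30, -0.24, 0.16 and 0.25 on the old arrays, against 0.32, 0.24, -0.23 and -0.21 on the young arrays. Sostdc1, which is also in the choroid plexus list, carries much of these means: without it they were -0.05, -0.18, -0.13 and 0.11 on the old arrays, against 0.15, -0.01, 0.04 and 0.07 on the young arrays, and the median was -0.169. CA1 genes had a median of -0.04 with 6 of 7 negative, dentate genes one of 0.05 with 9 of 10 positive, and the dentate mean was highest on old AH, at 0.34. Neurogenesis genes had 8 of 16 positive and a median of -0.02. Dcx, a marker of newborn neurons, had a difference of -0.08 (adjusted p = 0.932), with old arrays from -0.91 to -0.36 and young arrays from -0.73 to -0.43. Pericyte, smooth muscle and meningeal genes had 19 of 22 negative with a median of -0.25, but 0.097 without young Y.

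Old arrays differed more among themselves than young arrays did. The SD over the 4 arrays was larger in old hippocampus for 63.2% of genes, and its median was 0.167 in old and 0.134 in young hippocampus. The same held in all 3 brightness bands, with 0.194 against 0.146 among the dimmest and 0.144 against 0.123 among the brightest genes. Without old AI the share was 53.2% and without old AF 53.8%, so most of the excess rests on these 2 arrays, while leaving out a young array gave 60.5% to 68.9%. The first principal component of the 8 arrays held 38.8% of the variance, and 16 of its 20 leading genes are in the choroid plexus list. The next 2 held 18.4% and 16.2%.

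**Figure D4:**
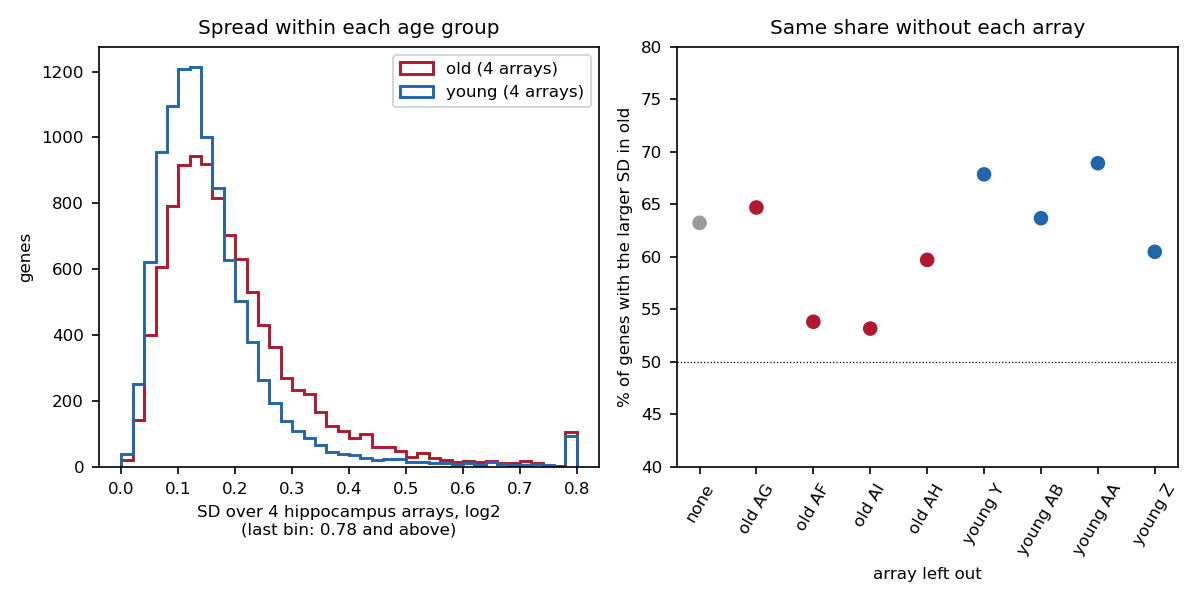
Left, the number of kept genes (y axis) at each SD over 4 hippocampus arrays (x axis, log2) in old (red) and young (blue) rats. Right, the percentage of genes whose SD is larger in old, with no array left out (grey) and without each old (red) or young (blue) array: it is 63.2% with all arrays and lowest, 53.2%, without old AI.

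Differences of the largest size could come from 1 array. Vom1r42, a vomeronasal receptor gene, read -4.44, -4.31, -4.47 and 7.34 on the old arrays, against -4.46, -4.31, -4.43 and -4.49 on the young arrays. Cenpc, a centromere protein, read -3.33, -3.34, -3.34 and -3.36 on the old arrays, against -3.41, -3.19, 4.73 and -3.40 on the young arrays. In both, 1 array of 8 carries the whole difference, 2.95 for Vom1r42 and -2.03 for Cenpc, and each is read by 1 kept probe. Cd200, a neuronal ligand that restrains microglia, was 3.48 on young Y and between 0.64 and 1.20 on the other 7 arrays. Its 4 probes gave differences from -0.85 to -0.12.

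Frontal cortex of the same ages was used to see which differences recur. Of the 270 genes with old hippocampus arrays all above the young, 241 (89.3%) had a positive difference in cortex, where 50.2% of all kept genes did. Cortex arrays were apart in the same direction for 75 of them, which is 27.8% of the 270 and 10.98% of the 683 such genes in cortex. Of the 189 lower genes 179 were negative in cortex and 50 were apart there, 26.5% of the 189 and 8.28% of the 604 in cortex. Over all kept genes, 6.79% were apart upward and 6.01% downward in cortex. Where a code stands for the same rat in both regions, the 2 comparisons share animals, and this cannot be told from the labels.

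Values in both regions lay side by side for most genes named above. C3 had a difference of 1.50 in hippocampus and 1.17 in cortex, S100a4 1.05 and 1.13, Lsp1 0.84 and 0.66, and Gpnmb 0.76 and 0.45. Values of like sign in both regions, none called in hippocampus, were those of Pla2g7 (0.50 and 0.68), Srebf1 (0.42 and 0.45), St8sia5 (-0.51 and -0.62) and Dusp1 (-0.35 and -0.74). Trem2 (0.55 and 0.33) and its adaptor Tyrobp (0.57 and 0.27) had the larger value in hippocampus, and myelin genes had the larger median in cortex, 0.12 and 0.34. The test of the difference between the 2 age effects called 0 genes by limma, with 266 (2.65%) at an unadjusted p under 0.05. No gene was therefore shown to be particular to hippocampus.

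Single genes had small unadjusted p for the difference between regions. Spp1 was the 1 gene with separate arrays in opposite directions, 0.70 in hippocampus and -0.90 in cortex (unadjusted p of the difference 0.000457, adjusted p = 0.999), and its means lay under the minimum at both ages in hippocampus. Sla, an adaptor of antigen receptor signalling, had the smallest p of the difference (0.000437, adjusted p = 0.999) through a cortex value of -1.20 beside -0.02 in hippocampus. Actr1b had -0.26 in hippocampus and 0.02 in cortex, with an unadjusted p of the difference of 0.0133.

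**Figure D5:**
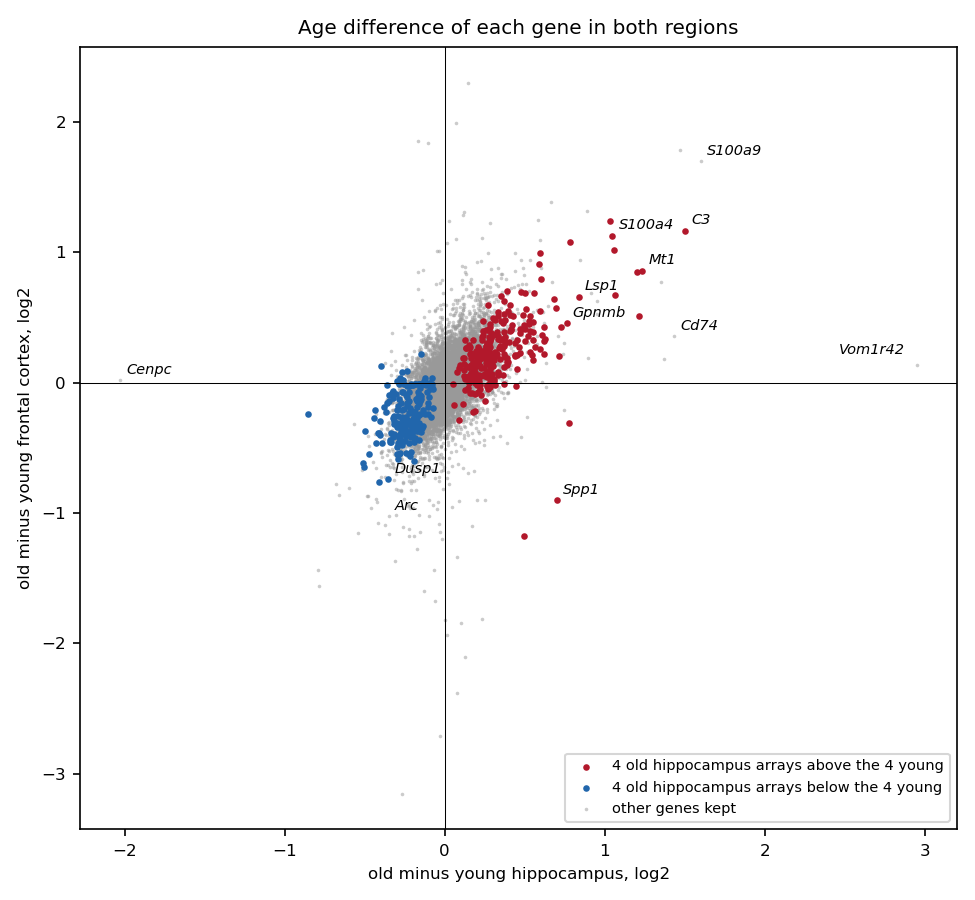
Age difference of each kept gene in hippocampus (x axis, old minus young, log2) and in frontal cortex (y axis, old minus young, log2). Red points are the 270 genes with all old hippocampus arrays above the young, blue the 189 with all below; 241 of the red points lie above 0 in cortex and 179 of the blue points lie below 0.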

How the data were processed

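Per the labels' protocols, the RNA was labelled with Cy3 by Agilent's low-input method, hybridised to Agilent rat arrays and read with Agilent Feature Extraction; how background and scale were handled is not given in the sources. The authors deposited a table of log2 signals, 1 column per array, whose quartiles are equal in every column (lower quartile 5.26, median 6.77, upper quartile 9.17). A second deposited table was not used, because its 16 sample columns match no sample by name. GEO's probe annotation named 45904 probes, of which 39795 took their symbol from the RefSeq table for GRCr8 by accession and 6109 kept the annotated one; 17072 spots have no gene.

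From each array's values their 75th percentile among gene probes (9.42 to 9.44) was subtracted. A gene was read from its brightest probe and kept if its highest group mean passed the 40th percentile of probe means, -2.95 on the shifted scale. Negative control spots averaged 4.99 as deposited. The 4 group means were fitted over all 16 arrays with limma 3.58.1 in R 4.3.3, with Benjamini-Hochberg adjustment at 0.05. Precision is limited by how few arrays there are. The fit was tested on simulated data. Tables and figures were made with Python 3.11.15, pandas 2.3.3, numpy 2.4.6 and matplotlib 3.10.9.

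The genes and the 59 gene lists were chosen with earlier results of these data known. Genes named are those called, the next 15 by p in each direction with groups that do not overlap, the 10 with the largest differences, up to 4 of each list by p, a short fixed set, and the 10 with the smallest p for the difference between regions. Probes for near-identical copies, as in the RT1, globin, ribosomal protein and metallothionein families, may cross-hybridise. Alternatives were other scalings, filters, probe rules, limma settings, covariates, the 8 hippocampus arrays alone, the title code as a block, and each array left out in turn. The title codes correlated by 0.0506 as a block, and no label says that they mark animals.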

Additional observations from a re-analysis of the deposited data

Results flagged for a closer look

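In groups of 4 arrays, 1 value was marked where its gap to the nearest other, divided by the range, exceeded Dixon's critical value for 4 samples. This marked 13 of 268 groups, and chance marks about 1 in 20.

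Old AH stood apart in 5 of them. Vom1r42 was highest there at 7.34 and Prg2 at 1.33, Asnsd1 was lowest at 0.59, and the list means of dentate granule neurons (0.34) and of thalamus and habenula (0.58) were highest. Old AI had the lowest mean of GABA-A receptor genes, -0.28.

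Young Y was highest for Cd200 at 3.48, Actg2 at -1.49 and Igf1 at -0.24. Young AA was highest for Cenpc at 4.73 and for the dentate list mean at 0.15. Young AB was lowest for Arc at 1.22 and highest for the CA1 list mean at 0.24.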

How the results depend on the processing

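Limma called 4 genes in hippocampus. The count was 8 with a stricter filter on dim probes, where Tyrobp, Aspg, Mt2A and Trem2 joined the 4, and 8 with array weights. It was 1 with the 8 hippocampus arrays alone and 1 without old AI and young AB, a setting chosen after seeing the data. It ranged from 1 to 7 when 1 array was left out: 1 without young AB, AA or Z, 2 without old AH, 3 without old AG or AF, and 7 without young Y or old AI. C3 was called in each of these fits. With the title code as a replicate block the count was 4, the same genes. The causes were not tested. The difference of age effects called 0 genes in every setting that fitted it, against 266 at an unadjusted p under 0.05 in the main setting.

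Of the genes with an unadjusted p under 0.05, 457 were higher and 224 lower (67.1% higher). The split was 331 and 380 (46.6%) with the mean of all probes. Of 5759 alternative values of the 279 named genes, 5698 kept their side of the threshold and their size, 17 passed it, 20 lost it and 24 moved by more than the spread. The sign stayed the same in every alternative for 242 of the 279 genes, and for the medians of 23 of the 59 lists. The share of genes with the larger SD in old ran from 53.2% to 68.9% when 1 array was left out. Leaving Sostdc1 out of the CA2 and CA3 list and C3 out of the complement list, chosen after seeing the data, gave medians of -0.169 and 0.328. The dim-probe minimum limits which markers can be read: without it the neutrophil median was -0.012 over 11 genes, and the class II median 0.065 over 10.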
